A study of Mus musculus with 12 samples.

Results

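A set of 9 genes that carry signals for inflammatory and programmed cell death was followed in differentiating mouse preosteoblasts with and without interferon beta (IFN). They are Tnfsf10, Fas, Casp8, Ripk1, Ripk3, Mlkl, Casp4, Gsdmd and Xaf1, taken by their symbols from a table of 55291 gene symbols. All 9 were present and all 9 were among the 17289 genes with enough counts to test. The cells were MC3T3-E1, a clonal wild-type preosteoblast line derived from mouse calvaria, so every group comes from 1 line. All groups were grown in 10% serum and induced to differentiate toward bone after confluence, with the start of induction as day 0. The IFN arm received mouse IFN beta, at a dose labelled 50 mg/L, a unit that could not be checked here, once induction began and was sampled at day 0, day 14 and day 21. The control arm was differentiated and sampled at the same days without IFN. Each of the 6 groups has 2 libraries. The labels do not say whether the IFN libraries of day 0 had met IFN before harvest, nor whether both libraries of a group came from different cultures. A p-value here may therefore reflect technical spread alone.

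Death ligands such as TRAIL, the product of Tnfsf10, and Fas ligand bind receptors whose intracellular death domains recruit caspase-8, which starts apoptosis. Where caspase-8 is inactive, the kinases Ripk1 and Ripk3 can pass the signal to Mlkl, which breaks the plasma membrane in necroptosis. Pyroptosis reaches a similar end by another route, in which an inflammatory caspase cuts Gsdmd and the freed fragment forms membrane pores. Type I interferon is known as an inducer of several of these genes, among them Tnfsf10, Mlkl, Casp4 and Xaf1, in many cell types.

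Library totals ran from 29772425 to 38908453 counts. Values per gene are CPM, counts scaled to a common library total after TMM scaling, and fold changes are log2 ± SE from an edgeR quasi-likelihood fit to all 12 libraries. A gene is said to have risen, or is called, when its Benjamini-Hochberg adjusted p over all 17289 genes was below 0.05. A rise means a higher level in IFN than in control, not an increase over days. The treatment was visible at the later days: Irf7, an amplifier of interferon responses, stood at 720 and 742 CPM in the IFN libraries of day 14, against 3.17 and 6.72 CPM in the control libraries, and at 504 and 546 CPM in the IFN libraries of day 21, against 13.7 and 10.7 CPM in control. All 10 osteoblast markers had counts, and their summed level was 10810 to 31210 CPM. Most of it came from the matrix genes Col1a1, Col1a2, Spp1 and Sparc, which reached 9730, 12600, 14100 and 2260 CPM. Runx2 stood at 71.9 to 126 CPM and Sp7 at 3.91 to 28.4 CPM. Alpl never exceeded 30 CPM, Bglap 6.89 CPM and Pth1r 2.14 CPM, and Ibsp had counts in 9 libraries. Of the markers of other cells, 7 of 7 macrophage markers had counts, with a sum of 20.55 to 55.47 CPM, most of it from Lyz2, Cd14 and Cd68, while the pan-leukocyte gene Ptprc never exceeded 0.123 CPM. All 6 adipocyte markers had counts, with a sum of 13.39 to 101.2 CPM that came mostly from Cebpa and Fabp4, while Adipoq never exceeded 0.246 CPM. The 5 endothelial markers summed to 1.028 to 4.073 CPM, and 5 of 7 T and NK cell markers had counts, summing to at most 1.354 CPM, with Nkg7 and Ncr1 at 0 counts in all 12 libraries. At day 14 the osteoblast sum was 10810 to 10940 CPM in IFN and 17750 to 25460 CPM in control, and the sum of 7 macrophage markers 26.97 to 28.17 CPM in IFN and 29.82 to 32.69 CPM in control. The adipocyte sum was 17.5 to 19.54 CPM in IFN and 26.96 to 35.52 CPM in control at day 14. At day 21 the osteoblast sum was 18530 to 19620 CPM in IFN and 22130 to 31210 CPM in control, and the adipocyte sum 39.92 to 52.85 CPM in IFN and 51.4 to 101.2 CPM in control. Their part in the results of either day was not tested. Control libraries varied more than IFN libraries, with a biological coefficient of variation of 0.392 in control and 0.0642 in IFN. The edgeR fit shares its estimate of spread over both arms. An SE or p-value of a comparison is therefore not the spread of the libraries compared alone. Within the IFN arm it also carries the wider control spread, and within the control arm the narrower IFN spread. A pair of control libraries stood apart, control day 0 replicate 1 by the ribosomal RNA gene CT010467.1 (21084 CPM, against 1103 CPM in replicate 2) and control day 21 replicate 2 by the endoplasmic reticulum chaperone Hspa5 (25678 CPM, against 959 CPM in replicate 1). CT010467.1 was also higher in replicate 1 of control at day 14 (8633 CPM, against 99.3 CPM in replicate 2) and day 21 (5917 CPM, against 148 CPM in replicate 2). Control day 14 replicate 1 further had 626 CPM of Bnip3, a mitophagy gene induced by low oxygen, against 91.2 CPM in replicate 2.

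At day 14 of IFN treatment, Mlkl and Xaf1 rose among the 9 genes and none fell, a count of 2 where 2.29% of all genes tested were called, 1.3% as higher. Both IFN libraries lay above both control libraries in 7 of the 9 genes, against 28.6% of all genes, and Fas and Ripk3 overlapped. The median log2 fold change of the 9 genes was 0.73, with -0.01 over all genes. At day 21 Tnfsf10 and Xaf1 rose and none fell, where 0.995% of all genes were called, 0.839% as higher. The same 7 genes lay above control there, against 20.9% of all genes, Ripk3 lay below control, against 18.5% of all genes, and Fas overlapped. The median of the 9 genes at day 21 was 0.37, with -0.01 over all genes. Averaged over both days, Tnfsf10, Mlkl and Xaf1 rose, 3 of 9 where 3.94% of all genes were called, 2.14% as higher. At day 14, 13.8% of all genes had an unadjusted p below 0.05, and the share called was 5.77% by DESeq2, 9.53% by limma voom with library weights and 16.1% without both outlying control libraries (day 0 replicate 1, day 21 replicate 2). At day 21 these shares were 13.1%, 3.67%, 0.711% and 4.92%. These are bulk libraries, so a change in the number of cells expressing a gene and a change in its RNA per cell cannot be told apart.

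**Figure D1:**
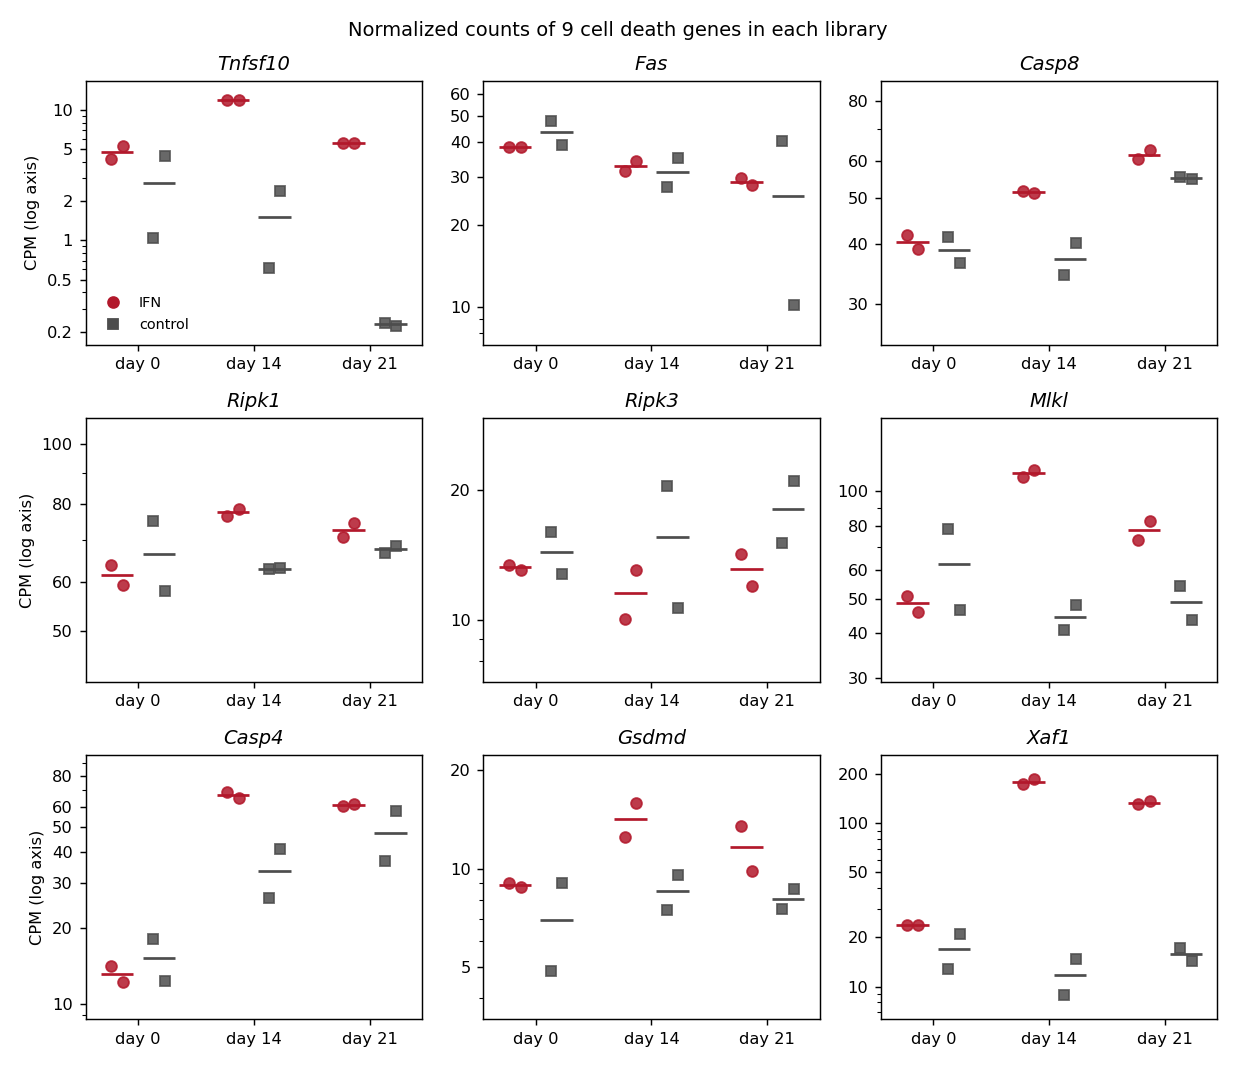
Normalised counts (CPM, log axis) of the 9 genes in each library, with IFN as red circles, control as grey squares and a line at each group mean of 2 libraries. Xaf1, Mlkl and Tnfsf10 separate the arms at days 14 and 21, while Fas overlaps at both of these days.

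Among the ligands and receptors, Tnfsf10 (mm10 chr3:27317028-27342427, plus strand), which encodes TRAIL, showed a wide difference on low counts. At day 14 it stood at 11.9 CPM in both IFN libraries, against 0.61 and 2.41 CPM in the control libraries. At day 21 it stood at 5.64 and 5.59 CPM in the IFN libraries, against 0.23 and 0.22 CPM in control, which are 8 and 6 counts. The arms did not overlap at either day, while at day 0 the IFN libraries had 4.23 and 5.34 CPM and the control libraries 1.05 and 4.43 CPM, which overlap. The difference was 4.599 ± 0.80 at day 21 (24.2-fold, adjusted p = 0.0232), 2.98 ± 0.68 at day 14 (adjusted p = 0.0508) and 3.79 ± 0.52 on average (adjusted p = 0.00219). The call on average held without each library in turn and under all 9 other settings tried. The day 14 value passed in 6 of the 9 other settings (adjusted p 5.24e-09 to 0.0612), and without control day 14 replicate 2 it was 4.28 (adjusted p = 0.0296), while without control day 14 replicate 1 it was 2.31 and did not pass (adjusted p = 0.276). It also passed without either control library of day 0 or of day 21 (adjusted p 0.0213 to 0.0338). The day 21 call was lost on removing control day 21 replicate 2 (adjusted p = 0.12), and likewise for either IFN library of day 14 (0.0547 and 0.0543) or of day 21 (0.104 and 0.103). It held in 7 of the 9 other settings (adjusted p 9.35e-16 to 0.61). IFN levels were 4.23 and 5.34 CPM at day 0 and 5.64 and 5.59 CPM at day 21. The 24.2-fold difference thus goes with a low control level at day 21. Within the IFN arm, edgeR did not call Tnfsf10 from day 0 to day 14 (1.32 ± 0.63, adjusted p = 0.219). Nor was it called from day 14 to day 21 (-1.09 ± 0.63, adjusted p = 0.844). Of the 9 other settings, 4 called the first step and 2 the second.

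The Tnfsf10 promoter is shown because the gene had the highest fold of the 9 at day 21. RefSeq gives the 250 bases before its start (GRCm38.p6, the mm10 build, chr3:27316827-27317076, plus strand). The search used the letters AANNGAAA, a short core bound by interferon regulatory factors (IRF element), on both strands, and matches are in capitals.
Tnfsf10: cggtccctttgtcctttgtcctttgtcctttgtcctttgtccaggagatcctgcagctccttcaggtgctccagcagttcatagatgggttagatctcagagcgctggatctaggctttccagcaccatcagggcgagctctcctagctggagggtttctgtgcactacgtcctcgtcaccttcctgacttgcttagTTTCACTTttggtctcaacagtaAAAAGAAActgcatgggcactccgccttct
It holds 2 matches, at -53 to -46 and -30 to -23 from the start. The same letters occur in 23.9% of 32817 promoter windows of 300 bases, so a match is a description of the sequence only.

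Control Tnfsf10 was itself unsteady. Between replicates it differed at day 0 (34 and 176 counts) and day 14 (20 and 80 counts), the lower library in each case being replicate 1, which also had the higher CT010467.1 level (21084 and 8633 CPM, against 1103 and 99.3 CPM in replicate 2). At day 21 CT010467.1 was again higher in replicate 1 (5917 CPM, against 148 CPM in replicate 2), while Tnfsf10 was as low in both, at 0.23 and 0.22 CPM. In the IFN arm CT010467.1 stood at 107 and 694 CPM at day 0 and at 2862 and 7244 CPM at day 14. At day 21 of IFN it stood at 2085 and 2420 CPM. Both IFN libraries of day 14 had 11.9 CPM of Tnfsf10. The part of that RNA in the Tnfsf10 levels was not tested. From day 14 to day 21 the control level differed by -2.71 ± 0.80 (adjusted p = 0.167 by edgeR and 0.0116 by DESeq2; over 9 settings 2.79e-05 to 0.957).

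Fas (chr19:34290666-34327772, plus strand), the receptor for Fas ligand, gave no separation of the arms at day 14 or day 21. At day 0 it was lower in both IFN libraries (38.5 and 38.6 CPM) than in both control libraries (47.9 and 39.2 CPM). That difference did not pass (log2 -0.18 ± 0.45, adjusted p = 0.997 by edgeR). The share of all genes apart in this way at day 0 is not given here. Fas stood at 31.4 and 34.2 CPM in the IFN libraries of day 14, against 27.4 and 35.0 CPM in control. At day 21 it stood at 29.6 and 27.9 CPM in the IFN libraries, against 40.6 and 10.2 CPM in control, so that the control libraries enclosed both IFN libraries. The low control value belongs to the library with high Hspa5. The log2 fold change at day 21 was 0.17 ± 0.45 (95% interval -0.83 to 1.18), -0.51 without control day 21 replicate 2 and 1.48 without replicate 1. Without replicate 1, the library with high Hspa5 is the only control of that day. At day 14 it was 0.07 ± 0.45 (95% interval -0.93 to 1.07), and it was -0.09 without control day 14 replicate 1.

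Of 16 death ligand and receptor genes, 13 could be tested. Tnfrsf1b, a receptor for tumour necrosis factor, was the member called at day 14 and Tnfsf10 the member called at day 21, and none fell, against 2.29% and 0.995% of all genes. Over all genes, 5.77% and 3.67% were called by DESeq2 at days 14 and 21, and 9.53% and 0.711% by limma voom. The shares without both outlying control libraries are given above. DESeq2 called 3 of the list at day 14 and 1 at day 21, limma voom 5 and 0, and the fit without both outlying control libraries 5 and 2. Tnfrsf1b averaged 185 ± 2.16 CPM in IFN and 87.7 ± 10.9 CPM in control at day 14 (SD, n = 2 each; log2 1.08 ± 0.20, adjusted p = 0.0194), and its difference at day 21 was 0.36 (adjusted p = 0.466). The call of day 14 was lost without any 1 of the 4 libraries of that day, control replicates 1 and 2 (adjusted p = 0.0786 and 0.0941) and IFN replicates 1 and 2 (0.15 and 0.167). The TRAIL receptor gene Tnfrsf10b was abundant in both arms, at 72.1 ± 2.01 CPM in IFN and 69.0 ± 0.07 CPM in control at day 14 (log2 0.06, adjusted p = 0.931). At day 21 its difference was -0.47 (adjusted p = 0.359), -0.74 without control day 21 replicate 1 and -0.17 without replicate 2. Of the 9 other settings, 0 called it. Fasl, the Fas ligand gene, had 8 counts and Tnf 20 counts over all 12 libraries, too few to test.

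The receptor complex genes among the 9 moved little. Casp8 (chr1:58795374-58847503, plus strand), the initiator caspase that also restrains necroptosis, stood at 51.7 and 51.4 CPM in the IFN libraries of day 14, against 34.5 and 40.2 CPM in control. At day 21 Casp8 stood at 60.6 and 63.1 CPM in the IFN libraries, against 55.5 and 55.02 CPM in control. The arms did not overlap at either day, yet the log2 fold changes of 0.46 ± 0.15 (adjusted p = 0.184) and 0.16 ± 0.15 (adjusted p = 0.686) did not pass by edgeR. Of the 9 other settings, 2 called Casp8 at day 14, limma voom among them (adjusted p = 0.041), and 0 at day 21. The control level of Casp8 at day 21 lay above that of day 14 by 0.56 ± 0.15 (adjusted p = 0.151 by edgeR and 0.0192 by DESeq2). Ripk1 (chr13:34002363-34037147, plus strand), the kinase that sorts signals between survival, apoptosis and necroptosis, stood at 76.5 and 78.6 CPM in the IFN libraries of day 14, against 62.8 and 63.1 CPM in control. By day 21 the level was 70.7 and 74.7 CPM in the IFN libraries, against 66.8 and 68.6 CPM in control. IFN libraries were above control at both days by narrow margins, with log2 fold changes of 0.30 ± 0.16 (adjusted p = 0.447) and 0.10 ± 0.16 (adjusted p = 0.826). Of the 9 other settings, 1 called Ripk1 at day 14, the fit without both outlying control libraries, and 0 at day 21. Ripk1 shares exons with Gm17084 on the same strand and Serpinb6a on the opposite strand, so its counts are uncertain.

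All 18 genes of the receptor complexes and their brakes were tested, and 2 were called at day 14 and 1 at day 21, each higher in IFN, where 1.3% and 0.839% of all genes were called as higher. The counts at days 14 and 21 were 3 and 1 by DESeq2, 4 and 1 by limma voom, and 5 and 1 without both outlying control libraries. The shares of all genes were 5.77% and 3.67% by DESeq2 and 9.53% and 0.711% by limma voom, and those without both outlying control libraries are given above. Rnf31, the catalytic subunit of the linear ubiquitin ligase that limits death signalling, averaged 68.0 ± 1.22 CPM in IFN and 29.3 ± 2.73 CPM in control at day 14 (SD, n = 2 each; log2 1.21 ± 0.20, adjusted p = 0.00982), and its difference at day 21 was 1.41 ± 0.20 (adjusted p = 0.00716). Cflar, which encodes the caspase-8 regulator FLIP, averaged 310.3 ± 9.79 CPM in IFN and 135 ± 22.8 CPM in control at day 14 (log2 1.198 ± 0.19, adjusted p = 0.00913). At day 21 its difference was 0.52 ± 0.19 (adjusted p = 0.277). Xiap, which inhibits caspases and is itself bound by the Xaf1 protein, had differences of 0.16 (adjusted p = 0.855) and 0.39 (adjusted p = 0.561) at days 14 and 21. The day 21 value of Xiap was 0.91 without control day 21 replicate 1 and -0.01 without replicate 2. The Rnf31 call was lost at day 14 without control replicate 1 of that day (adjusted p = 0.109) or IFN replicate 1 or 2 of that day (0.106 and 0.0965), and at day 21 without IFN replicate 1 or 2 of that day (0.0609 and 0.0774). The Cflar call was lost without control day 14 replicate 2 (0.0529) or IFN day 14 replicate 1 or 2 (0.0785 and 0.105).

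In the necroptosis branch, the effector Mlkl rose at day 14 and its kinase Ripk3 was not called at any day. Mlkl (chr8:111311797-111338177, minus strand), the membrane-breaking pseudokinase, stood at 110.2 and 115 CPM in the IFN libraries of day 14, against 40.9 and 48.1 CPM in control. At day 21 it stood at 73.3 and 82.5 CPM in the IFN libraries, against 54.4 and 43.6 CPM in control. The arms were apart at both days and overlapped at day 0, where IFN had 51.0 and 45.9 CPM and control 78.4 and 46.6 CPM. Its log2 fold change was 1.34 ± 0.24 at day 14 (2.53-fold, adjusted p = 0.0165), 0.67 ± 0.23 at day 21 (adjusted p = 0.262) and 1.003 ± 0.17 on average (adjusted p = 0.00687). The call on average held without each library in turn, while that of day 14 was lost without control replicate 1 of that day (1.23, adjusted p = 0.144) or either of its IFN libraries (adjusted p = 0.108 and 0.139).

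Ripk3 (chr14:55784995-55788865, minus strand), the kinase that activates Mlkl, stood at 10.0 and 13.0 CPM in the IFN libraries of day 14, against 20.5 and 10.7 CPM in control. Day 21 values were 14.2 and 11.99 CPM in the IFN libraries, against 15.1 and 21.03 CPM in control. It was the gene of the 9 with a negative log2 fold change at both later days, and neither value passed: -0.43 ± 0.32 at day 14 (95% interval -1.13 to 0.26, adjusted p = 0.609) and -0.46 ± 0.31 at day 21 (95% interval -1.16 to 0.24, adjusted p = 0.571). Without control day 14 replicate 1, the day 14 value was 0.11. The difference in response between Ripk3 and Mlkl was not tested.

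The Mlkl promoter is printed for contrast with that of Tnfsf10, since the gene rose at day 14 and its window holds none of the letters searched. The window is the 250 bases before the RefSeq start (GRCm38.p6, chr8:111338206-111338455, minus strand).
Mlkl: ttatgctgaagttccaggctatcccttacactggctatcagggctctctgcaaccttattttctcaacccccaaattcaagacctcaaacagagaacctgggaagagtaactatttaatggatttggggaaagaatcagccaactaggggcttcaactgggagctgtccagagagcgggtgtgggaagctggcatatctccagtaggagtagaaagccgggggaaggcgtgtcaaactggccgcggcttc
The window of Ripk3 also held no match. That says only that these letters are not in these windows.

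All 10 necroptosis genes were tested, and 4 were called at day 14 and 3 at day 21, each higher in IFN, where 1.3% and 0.839% of all genes were called as higher. DESeq2 called 4 at day 14 and 3 at day 21, limma voom 4 and 2, and leaving out both outlying control libraries gave 5 and 2. The shares of all genes at days 14 and 21 were 5.77% and 3.67% by DESeq2 and 9.53% and 0.711% by limma voom. Those without both outlying control libraries are given above. Zbp1, a sensor of Z-form nucleic acid that binds Ripk3, averaged 253 ± 0.95 CPM in IFN and 3.19 ± 1.49 CPM in control at day 14 (SD, n = 2 each; log2 6.31 ± 0.53, adjusted p = 0.000302), and 144 ± 5.57 CPM in IFN and 6.08 ± 2.79 CPM in control at day 21 (log2 4.56 ± 0.49, adjusted p = 0.00202). Adar, an RNA-editing enzyme that limits Zbp1 activation, was higher by 2.07 ± 0.20 at day 14 (adjusted p = 0.000479) and 1.44 ± 0.19 at day 21 (adjusted p = 0.00499). Tlr3, a receptor for double-stranded RNA that can signal to Ripk3, was higher by 2.39 ± 0.36 at day 14 (adjusted p = 0.00601) and 1.98 ± 0.36 at day 21 (adjusted p = 0.0302). Beside Mlkl these were the genes called, and the median over the list was 0.28 at day 14 and 0.17 at day 21. Zbp1 kept its call at both days without each library in turn, and Adar at day 14. Without either IFN library of day 21 the day 21 call of Adar was lost (adjusted p = 0.0527 each). Tlr3 lost its call at day 14 without IFN day 14 replicate 2 (0.0534) and at day 21 without control day 21 replicate 2 (0.102) or any 1 of the 6 IFN libraries (0.0642 to 0.207). Of the 9 other settings, 8 called it at day 14 and 6 at day 21.

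**Figure D2:**
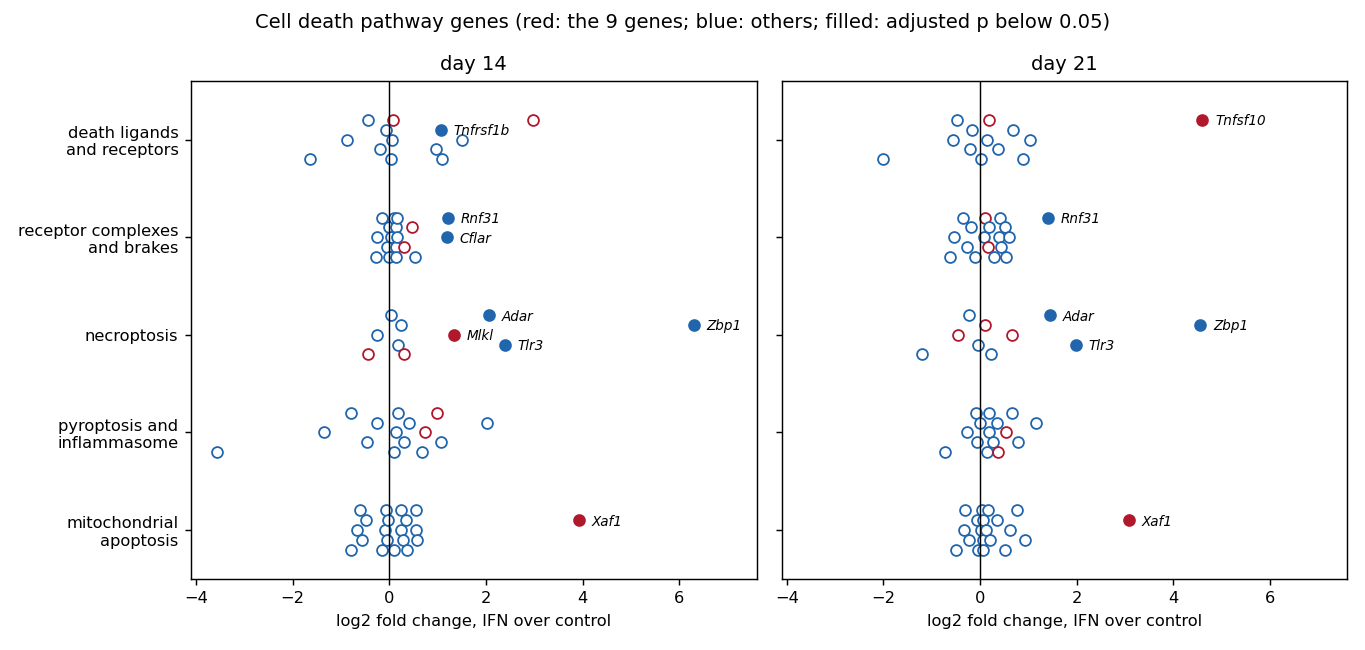
Log2 fold changes of IFN over control at day 14 and day 21 for the tested genes of 5 cell death lists, with the 9 genes in red, other genes in blue and filled points where the adjusted p was below 0.05. The filled points all lie to the right of 0, and the necroptosis row holds 4 of them at day 14 and 3 at day 21.

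Casp4 and Gsdmd, the pyroptosis genes among the 9, lay higher in IFN at day 14 without passing the test. Casp4 (chr9:5308828-5336783, plus strand), the caspase that binds intracellular lipopolysaccharide and cuts Gsdmd, stood at 68.7 and 65.1 CPM in the IFN libraries of day 14, against 26.1 and 40.9 CPM in control. The day 21 levels were 60.4 and 62.0 CPM in the IFN libraries, against 36.6 and 57.9 CPM in control. The arms did not overlap at either day, with log2 fold changes of 0.997 ± 0.28 (adjusted p = 0.112) and 0.37 ± 0.28 (adjusted p = 0.6). The day 14 value passed in 4 of the 9 other settings (adjusted p 0.00143 to 0.146), DESeq2 among them (0.0304). Without control day 21 replicate 1 or 2 it also passed (0.0311 and 0.0287).

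Gsdmd (chr15:75862327-75867408, plus strand), the pore former itself, stood at 12.5 and 15.9 CPM in the IFN libraries of day 14, against 7.48 and 9.58 CPM in control. For day 21 the values were 13.5 and 9.83 CPM in the IFN libraries, against 7.53 and 8.63 CPM in control. IFN libraries lay above control at both days, but the log2 fold changes of 0.73 ± 0.32 (adjusted p = 0.338) and 0.53 ± 0.32 (adjusted p = 0.514) did not pass by edgeR. Of the 9 other settings, 1 called Gsdmd at day 14, the fit without both outlying control libraries, and 0 at day 21.

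Of 19 pyroptosis and inflammasome genes 15 could be tested, and edgeR called 0 at either day. At both days 10 had positive and 5 negative log2 fold changes, with a median of 0.18. At day 14, 3 had an unadjusted p below 0.05, where 13.8% of all genes did, DESeq2 and limma voom with library weights each called 1, and the fit without both outlying control libraries called 4. At day 21, 1 had an unadjusted p below 0.05, where 13.1% of all genes did, both other tools called 0, and the fit without both outlying libraries called 1. The shares of all genes called at days 14 and 21 were 5.77% and 3.67% by DESeq2 and 9.53% and 0.711% by limma voom. Those without both outlying control libraries are given above. Casp1, the caspase of the canonical inflammasomes, had 96 to 99 counts per library in IFN and 45 to 74 in control at day 14 (log2 0.69, adjusted p = 0.729), and a difference of 1.15 at day 21 (adjusted p = 0.511). Aim2, a sensor of cytosolic DNA, averaged 50.4 ± 0.38 CPM in IFN and 41.0 ± 3.78 CPM in control at day 14 (SD, n = 2 each; log2 0.30, adjusted p = 0.626). Its difference at day 21 was 0.18 (adjusted p = 0.778), and -0.13 without control day 21 replicate 1. Il1b, whose product is an inflammasome substrate, had 6 counts in all 12 libraries.

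Xaf1 (chr11:72301629-72313733, plus strand), which encodes a partner of Xiap that favours apoptosis, had the smallest adjusted p of the 9 genes at days 14 and 21. It stood at 174 and 186 CPM in the IFN libraries of day 14, against 8.88 and 14.7 CPM in control. The later IFN libraries, of day 21, had 131 and 137 CPM in the IFN libraries, against 17.2 and 14.3 CPM in control. At day 0 the IFN libraries, at 23.7 and 23.9 CPM, lay above the control libraries, at 12.9 and 20.98 CPM, with a log2 fold change of 0.49 ± 0.26 that did not pass (adjusted p = 0.997). Of the 9 genes, 1 lay above control at day 0, 1 below and 7 overlapped, and the share of all genes is not given here. The log2 fold change was 3.93 ± 0.29 at day 14 (15.3-fold, adjusted p = 0.000133) and 3.08 ± 0.28 at day 21 (8.48-fold, adjusted p = 0.000832). Both calls held without each library in turn and under all 9 other settings.

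The Xaf1 window is shown with a stretch of Casp8, because their longest shared run is 12 letters, AGAAACGAAACT, and the genes responded unequally. The 250 bases before the RefSeq start of Xaf1 (GRCm38.p6, chr11:72301379-72301628, plus strand) have an IRF element on the minus strand at -17 to -10, in capitals. The next 30 bases (chr11:72301629-72301658) and 30 bases of the Casp8 window (chr1:58802383-58802412, plus strand) carry the shared letters, in capitals.
Xaf1: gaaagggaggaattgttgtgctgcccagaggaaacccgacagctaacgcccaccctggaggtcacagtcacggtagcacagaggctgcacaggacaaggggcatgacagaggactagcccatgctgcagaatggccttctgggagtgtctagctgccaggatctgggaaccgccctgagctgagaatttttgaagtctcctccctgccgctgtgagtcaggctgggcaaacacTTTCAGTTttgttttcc
Xaf1 from the start: tgtgtgcaaAGAAACGAAACTccacagaag
Casp8: tgcgaaagcAGAAACGAAACTgggagacca
The stretch lies at +10 to +21 in Xaf1 and at -110 to -99 in Casp8, and it contains an IRF element. It was chosen after the sequences were read, and 6 of 32817 windows hold it (0.0183%). Those windows belong to Xaf1, Casp8, Helz2, Ddx58, Oas3 and Fyco1. Helz2, Ddx58 and Oas3, all known as interferon-induced genes, had log2 fold changes of 2.85, 2.84 and 4.59 at day 14 (adjusted p = 0.000968, 0.00193 and 0.00202). Fyco1 had -0.20 (adjusted p = 0.837) and Casp8 0.46 (adjusted p = 0.184), so of these 6 genes 4 were called at day 14, where 2.29% of all genes were called. Xaf1 and Casp8 are among the 6 because they chose the stretch. At day 21, Ddx58 (2.39, adjusted p = 0.00822), Oas3 (3.51, adjusted p = 0.012) and Xaf1 were called, and Helz2 (1.31, adjusted p = 0.0823), Fyco1 (0.63, adjusted p = 0.403) and Casp8 were not.

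Other windows held matches without a call. The interferon-stimulated response element core GAAANNGAAA, in 3.43% of windows, occurred at -5 to +5 of the second RefSeq start of Ripk1, shown here in 30 bases (chr13:34002860-34002889, plus strand) with the match in capitals.
Ripk1: acgttcccgGAAATCGAAAagcgcggaact
The gamma-activated site TTCNNNGAA, in 8.29% of windows, occurred in the windows of Fas and of the second Ripk1 start, and IRF elements in those of Fas, Casp4 and Casp8. The ISRE core of Ripk1 overlaps an IRF element and a gamma-activated site. Windows were given for 8 of the 9 genes, at 10 starts, and Gsdmd was not matched.

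**Figure D3:**
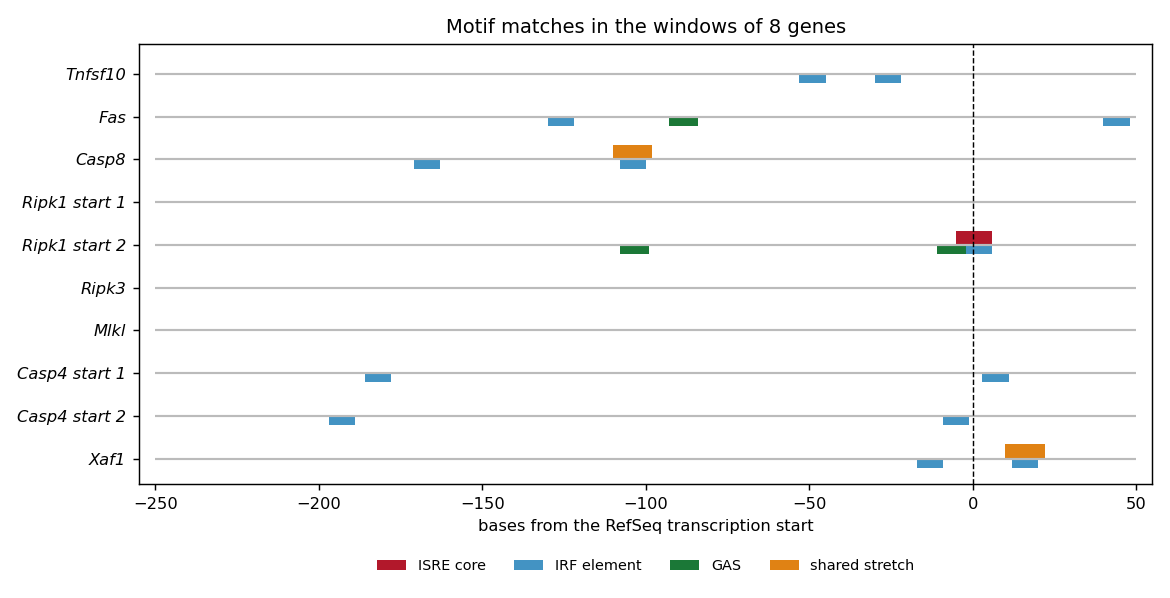
Matches to 4 short sequences in the windows of 8 genes, by distance in bases from the RefSeq start (dashed line). Matches to the IRF element lie near the start in Tnfsf10, Fas, Xaf1, Casp4 and the second start of Ripk1, and the rows of Mlkl, Ripk3 and the first start of Ripk1 are empty.

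Xaf1 leads the fifth list, that of mitochondrial apoptosis and executioner caspases, where 20 of 24 genes were tested. It was the member called by edgeR at both days, where 2.29% and 0.995% of all genes were called. The list medians were 0.04 at day 14 and 0.06 at day 21. Over all genes, 5.77% and 3.67% were called by DESeq2 at days 14 and 21, and 9.53% and 0.711% by limma voom. The shares without both outlying control libraries are given above. DESeq2 called 1 of the list at day 14 and 2 at day 21, limma voom 4 and 1, and the fit without both outlying control libraries 6 and 2. Bcl2l1, which encodes the survival protein Bcl-xL, averaged 185 ± 5.38 CPM in IFN and 127 ± 11.3 CPM in control at day 14 (SD, n = 2 each; log2 0.55 ± 0.18, adjusted p = 0.173) and differed by 0.76 ± 0.18 at day 21 (adjusted p = 0.0989). At day 14 it was 0.53 without control day 21 replicate 2. At day 21 it was 0.92 without control day 21 replicate 1 and 0.60 without replicate 2. Of the 9 other settings, 2 called it at day 14 and 3 at day 21, DESeq2 among the 3 (adjusted p = 0.0107).

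The IFN effect was then compared between days. At day 0, 0 of the 9 genes were called by edgeR, DESeq2 or limma voom, and 0 had an unadjusted p below 0.05, where 0.00578% of all genes were called and 2.2% had an unadjusted p below 0.05. The IFN effect on Xaf1 was higher at day 14 than at day 0 by 3.44 ± 0.38 (adjusted p = 0.00371), 1 of 9 genes where 0.596% of all genes were called, and it held without each library in turn. For Mlkl the same change was 1.70 ± 0.33 (adjusted p = 0.0575). It passed without control day 0 replicate 2 (2.03, adjusted p = 0.00851), control day 21 replicate 1 (0.0261) or control day 21 replicate 2 (0.0233), and in 4 of the 9 other settings (adjusted p 5.37e-05 to 0.118). Between day 14 and day 21, edgeR called 0 changes of the IFN effect among the 9 genes and 0% of all genes, with 1 of the 9 at an unadjusted p below 0.05 and 0 by DESeq2 or limma voom. Over all genes, 7.61% had an unadjusted p below 0.05, DESeq2 called 31 and limma voom 0. The log2 change was 1.62 ± 1.01 for Tnfsf10, -0.67 ± 0.33 for Mlkl and -0.85 ± 0.37 for Xaf1, so a lower or higher effect at day 21 than at day 14 was not shown for any of them.

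**Figure D4:**
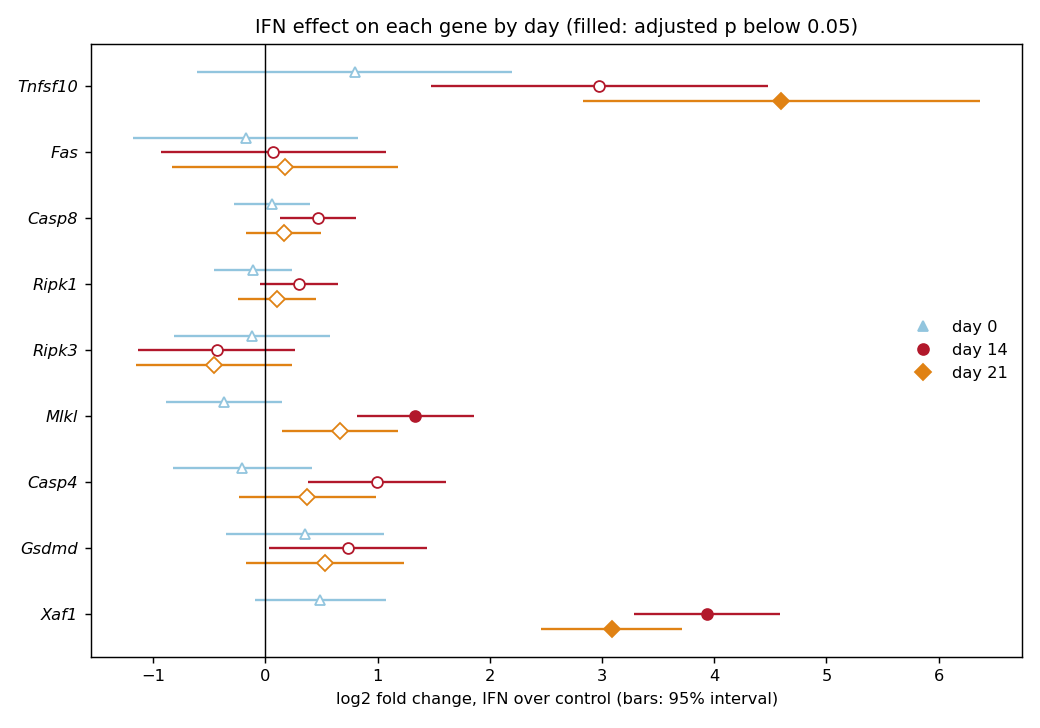
Log2 fold change of IFN over control with its 95% interval for each gene at days 0, 14 and 21, filled where the adjusted p was below 0.05. Tnfsf10 and Xaf1 lie far to the right at days 14 and 21, Mlkl at day 14, and Ripk3 is left of 0 throughout.

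Within the IFN arm, Casp4, Mlkl and Xaf1 were higher at day 14 than at day 0, 3 of 9 genes where 10.7% of all genes were called, 5.18% as higher. Casp4 stood at 68.7 and 65.1 CPM at day 14 and 14.1 and 12.2 CPM at day 0 of IFN (log2 2.35 ± 0.29, adjusted p = 0.00089). Xaf1 was higher by 2.92 ± 0.28 (adjusted p = 0.000237) and Mlkl by 1.21 ± 0.24 (adjusted p = 0.00956). The Mlkl call was lost without any 1 of the 4 libraries compared, which are IFN day 0 replicates 1 and 2 (0.0704 and 0.106) and IFN day 14 replicates 1 and 2 (0.0652 and 0.0785). From day 14 to day 21 of IFN, edgeR called 0 of the 9 genes and 0% of all genes, with the spread shared by both arms. Fitted to only the groups compared, edgeR called 4 of the 9 genes and 26.1% of all genes. In that step 1 of the 9 had an unadjusted p below 0.05, DESeq2 called 0 and limma voom with library weights 4. Over all genes, 6.54% had an unadjusted p below 0.05, DESeq2 called 0.659% and limma voom 16%.

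In the control arm, edgeR called 0 of the 9 genes for day 14 against day 0, where 2.38% of all genes were called, with 1 at an unadjusted p below 0.05, 1 by DESeq2 and 0 by limma voom. The shares over all genes were 16.3% at an unadjusted p below 0.05, 7.19% by DESeq2 and 2.15% by limma voom. With edgeR fitted to only the groups compared, the share was 0.718%. The gene of the 9 was Casp4, at 26.1 and 40.9 CPM at day 14 and 18.0 and 12.4 CPM at day 0 of control (log2 1.14 ± 0.28, adjusted p = 0.068). Without control day 21 replicate 1 or 2 it passed (0.0167 and 0.0147). Casp4 was thus higher at day 14 than at day 0 in the IFN arm, with a positive value in control that did not pass, and the difference between the arms in that step was 1.205 ± 0.39 (adjusted p = 0.294). For day 21 against day 14 of control, edgeR called 0 of the 9 genes, where 0.0289% of all genes were called, with 2 at an unadjusted p below 0.05, 2 by DESeq2 and 0 by limma voom, against 17.8%, 4.88% and 0.0289% of all genes. The Casp8 value of that step was 0.57 without control day 21 replicate 1. Fitted to only the groups compared, edgeR called 0% of all genes in that step.

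Levels were compared between genes as CPM per kilobase of exon. Mlkl had the highest mean level of the 9 in each of the 6 groups, overlapping Fas in control at day 0 and Casp8 in control at day 21. Its level was 48.8 in IFN and 19.3 in control at day 14, and that of Tnfsf10, the lowest in every group, was 2.26 in IFN and 0.29 in control at day 14. Xaf1 was the second highest in IFN at days 14 and 21, at 38.4 and 28.5, and the eighth in control at those days, at 2.51 and 3.36. Below Xaf1 in IFN at day 14 came Casp4 (18.0), Casp8 (17.8), Fas (15.9), Ripk1 (9.30), Gsdmd (5.97) and Ripk3 (5.03). Casp4 and Casp8 overlapped there, as did Gsdmd and Ripk3, while the other neighbours did not. In control at day 14, Fas (15.1) followed Mlkl, before Casp8 (12.9), Casp4 (9.03), Ripk1 (7.55), Ripk3 (6.79) and Gsdmd (3.59). Fas and Casp8 overlapped, as did Casp4 with Ripk1 and Ripk1 with Ripk3.

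The genes most like each of the 9 were found by Pearson r of log2 CPM over the 12 libraries, among 10833 genes, as a description of libraries that share arms, days and depth. Xaf1 was closest to Ifit3 (0.994), Parp10 (0.991) and Ifit3b (0.988), Casp4 to Ifi204 (0.987), Slc25a28 (0.986) and Ifi207 (0.98), and Mlkl to Pml (0.977), Trex1 (0.964) and Rnf25 (0.955). Tnfsf10 was closest to Gbp4 (0.95), Erap1 (0.944) and Irf1 (0.943), and Gsdmd to H2-Q4 (0.932), Tap2 (0.927) and Trim30d (0.926). For Fas the nearest were Ago1 (0.986), Klhl42 (0.979) and Cchcr1 (0.977), and for Casp8 Riox2 (0.941), Usp6nl (0.934) and Snx27 (0.933). The log2 CPM of Fas was 3.36 in control day 21 replicate 2 and 4.78 to 5.58 in all other libraries. Its r values may rest largely on that library, which was not tested. Ripk1 was nearest to Eif1ad (0.969), Srpk1 (0.952) and Ddx24 (0.948), and Ripk3 to Me1 (0.915), Tmem63a (0.911) and Rab3gap2 (0.896). Ifit3 and Ifit3b, the Ifi200 genes and the H2 genes have close copies, and their counts are uncertain.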

How the data were processed

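RNA was sequenced from MC3T3-E1 cells in 12 libraries, 2 in each of 6 groups, grouped by arm and day from the labels. The deposited table holds raw counts of reads per gene and library. Per the submitters' processing notes the authors used HISAT2, SAMtools and featureCounts with mm10. Versions, the annotation and the use of strand are not given in the sources used here, so overlapping genes are uncertain. The 9 genes, the pathway and marker lists and the comparisons were chosen with earlier results of these data known.

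The counts were modelled in edgeR 4.0.16 under R 4.3.3. Of all symbols, 17289 passed filterByExpr. Libraries were scaled by TMM, each group had its own mean, and robust quasi-likelihood F tests (6 residual degrees of freedom) were adjusted by Benjamini-Hochberg across the 17289 genes. Fits were tested on simulated data in which both arms had the same spread, so the unequal spread of the arms was not covered. SE is the log2 fold change divided by the root of F, and intervals are 95%. From each list up to 4 genes called at day 14 or 21 were named by smallest adjusted p, and Fasl, Tnfrsf10b, Cflar, Zbp1, Casp1, Aim2, Xiap and Bcl2l1 in any case, while the result of a further gene under that rule is not reported here; of the interferon check list only Irf7 is given. Casp8, Helz2, Ddx58, Oas3 and Fyco1 were named for their sequence. The nearest genes are the 3 with the highest r and a mean log2 CPM of at least 1 (prior count 2). Tnf, Il1b, CT010467.1, Hspa5 and Bnip3 were named after their values were seen.

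Other settings were DESeq2 1.42.0, scaling by RLE or by library size alone, low-count filters set to none or to 1 CPM in 2 libraries, a fit of only the groups compared, a replicate block, and the removal of each library in turn on the same 17289 genes. A lone library is then assumed to vary like the other groups. Chosen after seeing the data were limma 3.58.1 voom with library weights and a fit that leaves out both outlying control libraries (day 0 replicate 1, day 21 replicate 2). Positions and exon lengths are from GENCODE M21 on mm10, and promoter sequences from RefSeq on GRCm38.p6.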

Additional observations from a re-analysis of the deposited data

Results flagged for a closer look

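The effect of IFN on Xaf1 differed between days by a test of the difference itself. The log2 fold change of IFN over control was 3.93 ± 0.29 at day 14 and 0.49 ± 0.26 at day 0, a change of 3.44 ± 0.38 (edgeR adjusted p = 0.00371). Xaf1 stood at 174 and 186 CPM in the IFN libraries of day 14, against 8.88 and 14.7 CPM in control, and at 23.7 and 23.9 CPM in the IFN libraries of day 0, against 12.9 and 20.98 CPM in control. No other gene of the 9 passed that test.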

How the results depend on the processing

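Over all genes, DESeq2 called 5.77% at day 14 and limma voom 9.53%. At day 21 a fit of only the groups compared called 0.145% and limma voom 0.711%. For the change of the IFN effect between day 0 and day 14, DESeq2 called 2.75% and limma voom 3.35%. The shares without both outlying control libraries at days 14 and 21 are given in the results. Of the 9 genes, 2 were called at day 14. The count was 4 by DESeq2, 4 with no filter on low counts, 5 by limma voom with library weights and 7 without both outlying control libraries (day 0 replicate 1, day 21 replicate 2). It ran from 1 to 4 when each library was left out, with 1 without control day 14 replicate 1 or either IFN library of day 14, and 4 without either control library of day 21. At day 21 the count of 2 became 1 with only the groups compared and 1 by limma voom. On average over both days the 3 calls became 6 without both outlying control libraries and ran from 3 to 4 over the libraries left out, with Fas added without control day 21 replicate 1 (adjusted p = 0.00391) and Casp4 without replicate 2 (0.0191). For control day 14 against day 0 the count of 0 became 1 by DESeq2, where 7.19% of all genes were called, and 1 with no filter. The shares of all genes with no filter at day 14 and in this control step are not given here. For control day 21 against day 14 the count of 0 became 2 by DESeq2, where 4.88% of all genes were called. With no filter it became 1, where 1426 of 33962 genes were called. For IFN day 14 against day 0 the count of 3 became 8 with only the groups compared, 7 without both outlying libraries and 7 by limma voom (2 to 3), where these settings called 53.6%, 33.6% and 50.5% of all genes. For IFN day 21 against day 14 the count of 0 became 4 with only the groups compared, 1 without both outlying libraries and 4 by limma voom (0 to 0), where they called 26.1%, 4.3% and 16% of all genes. For the change of the IFN effect between day 0 and day 14 the count of 1 became 2 by DESeq2 and 2 by limma voom, whose shares are given above. With no filter it became 4, where 829 of 33962 genes were called. For the change between day 14 and day 21 the count was 0 by edgeR, DESeq2 and limma voom.

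Some values changed sign. Without both outlying control libraries, Fas at day 21 was -0.50, Fas on average -0.22, Mlkl at day 0 0.067 and Xiap at day 21 -0.000256. Over the libraries left out, Mlkl at day 0 ran from -0.69 to 0.058, Fas from -0.095 to 0.26 at day 14, from -0.51 to 1.48 at day 21 and from -0.23 to 0.77 on average, Ripk3 at day 14 from -0.83 to 0.11, Aim2 at day 21 from -0.13 to 0.53, Xiap at day 21 from -0.012 to 0.91, and Tnfsf10 in control at day 14 against day 0 from -2.17 to 0.53. The cause was not tested. With only the groups compared, the day 21 calls of Zbp1 (adjusted p = 0.0598), Adar (0.29), Rnf31 (0.368) and Tlr3 (0.121) were lost, and so was that of Tlr3 at day 14 (0.0549). At day 21 Tlr3 was also lost without both outlying control libraries (0.0709) and by limma voom (0.191).

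The correlation of deviations between same-numbered samples ran from -0.05 to 0.11 over 15 pairs of groups. The pairs of control groups had the highest values (0.107, 0.0801 and 0.11). Same-numbered control libraries also shared the higher level of the ribosomal RNA gene described in the results. Low correlations cannot exclude a factor shared by same-numbered libraries, so whether replicate numbers pair the samples was not decided. With a replicate block the members called were 3 at day 14 and 2 at day 21, Tnfsf10 passing at day 14 (3.18, adjusted p = 0.0288). Scaling by library size alone moved the median of all genes at day 21 to 0.129. Over all genes the count called ran from 121 to 2791 at day 14 (396 as reported) and from 25 to 3900 at day 21 (172 as reported). Tnfsf10 in control at day 21 rests on 14 counts.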
